A study of Zea mays with 29 samples.

Results

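Tetrasomic maize plants, which carry 4 copies of the long arm of chromosome 1 (1L), were compared with trisomic plants, which carry 3, to measure the expression change that goes with the fourth copy. The comparison rests on 8 leaf RNA libraries of the first of the study's 2 dosage series, 3 tetrasomic and 5 trisomic, out of 29 libraries in all (27 of RNA and 2 of DNA). They were chosen by their labels, and neither group serves as a control in the study. In both groups the rest of the genome is diploid, so that only the dose of 1L differs by label, by a ratio of 1.33. The other groups used here are disomic haploids (2 copies of 1L in an otherwise haploid genome, 2 libraries), haploids (1 copy, 3 libraries) and diploids (2 copies, 4 libraries) of series 1. From series 2, trisomics (3 copies, 3 libraries), diploids (2 copies, 3 libraries) and monosomics (1 copy, 4 libraries) are used. By the series' design text each library is a biological replicate. The labels used here name no inbred line, plant age or way in which the dose of 1L was changed.

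Adding or removing a chromosome segment unbalances the genome. Genes on the segment can follow their copy number, which is called a dosage effect, or keep their diploid output, which is called dosage compensation. Genes elsewhere can respond to regulators encoded on the segment, and in maize such responses in trans often run against the dose, which is called an inverse effect.

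The gene tables list 40306 identifiers with no names, products or positions, and 0 of them occur in the RefSeq table at hand, so no gene can be given a function here. Genes of the varied part of 1L are taken as the consecutive identifiers from Zm00004b002682 to Zm00004b005868, called the 1L run below. That is 3187 identifiers, of which 1901 had enough reads to be tested, and 1286 did not. The edges of the run had been found in this series by comparing tetrasomic with diploid libraries, so the tetrasomic level of the run helped to choose it and its mean change is given without a test. Edges found in series 2, which shares no library, start 30 identifiers later and end at the same one. The 8 tested genes among those 30 had a median log2 fold change of 0.03, tetrasomic over trisomic, against 0.34 for the first 100 tested genes of the run.

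Library totals were 17594270 to 18130088 counted reads in tetrasomics and 13199571 to 18923160 in trisomics, with 25000 to 25467 and 24756 to 26111 identifiers detected. The trisomic libraries differed more among themselves than the tetrasomic ones. The median gene had an SD of 0.22 over the 3 tetrasomic libraries and 0.37 over the 5 trisomic ones, in log2 CPM. CPM are counts scaled to a common total, here and for single genes after multiplying each library total by its TMM scaling factor. Those factors ran from 0.997 to 1.03 in tetrasomics and from 0.848 to 1.22 in trisomics. By Dixon's ratio, the gap next to an end value over the full range, no trisomic library was an outlier (critical value 0.71). This covers the level and read share of the run, scaling factors and library totals. Chi-square distances per gene were 14.3 to 22.2 within tetrasomics and 23.9 to 62.7 within trisomics. Between the groups they were 23.1 to 64.2, with a median of 42.7, beside a median of 45.3 within trisomics.

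With the fourth copy the 1L run as a whole was higher by close to the copy ratio, while no gene of the run or outside it passed the test for a difference in edgeR. For each library, the mean log2 CPM of all other tested genes, here without TMM factors, was subtracted from that of the run. This relative level was 0.82, 0.88 and 0.87 in tetrasomic replicates 1 to 3. In trisomic replicates 1 to 5 it was 0.46, 0.45, 0.44, 0.45 and 0.43. All tetrasomic libraries lay above all trisomic ones, and the gap between the groups was many times the spread within either. Tetrasomics averaged 0.86 ± 0.03 (SD, n = 3), against 0.45 ± 0.01 (SD, n = 5) for trisomics. The difference of 0.41 (SE 0.02) is a 1.33-fold higher level and 99% of the log2 of the copy ratio, 0.42. With the series 2 edges it was also 0.41. Its size depended on how the run was summarised, at 0.37 with summed reads, 0.29 with mean log2(RPKM + 1) and 0.39 when the median gene was taken. RPKM is the count scaled by gene length and library total.

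The run also took a larger share of all reads with the fourth copy. It held 14.1, 14.1 and 14.0% of the counted reads in tetrasomics and 11.1, 11.4, 11.1, 11.2 and 11.5% in trisomics. The means were 14.1 ± 0.10% (SD, n = 3) and 11.3 ± 0.17% (SD, n = 5), without overlap. The odds of a read to fall in the run were 1.29 times as high in tetrasomics as in trisomics.

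Set beside the diploids, the level of the run was higher at each higher copy number, and which of the 2 steps lay nearer to its copy ratio depended on how the run was summarised. With mean log2 CPM and the mean diploid set to 1, the level of the run relative to other genes was 1.0 ± 0.02 (SD, n = 4) at 2 copies, 1.39 ± 0.01 (SD, n = 5) at 3 and 1.84 ± 0.04 (SD, n = 3) at 4. The third copy thus went with a gain of 0.39 and the fourth with a gain of 0.46, where 1 extra copy in proportion would add 0.5. On the log2 scale the step from diploid to trisomic was then 80.3% of its copy ratio, and that from trisomic to tetrasomic 99%. Taking the median gene in place of the mean gave 92.4% for the third copy and 94.2% for the fourth. Summed reads gave 109.1% for the third copy, a 1.56-fold step, and 88.3% for the fourth, a 1.29-fold step. These figures for the third copy were added after seeing the data. Both steps share the trisomic libraries, so that a low trisomic level makes the first smaller and the second larger.

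**Figure D1:**
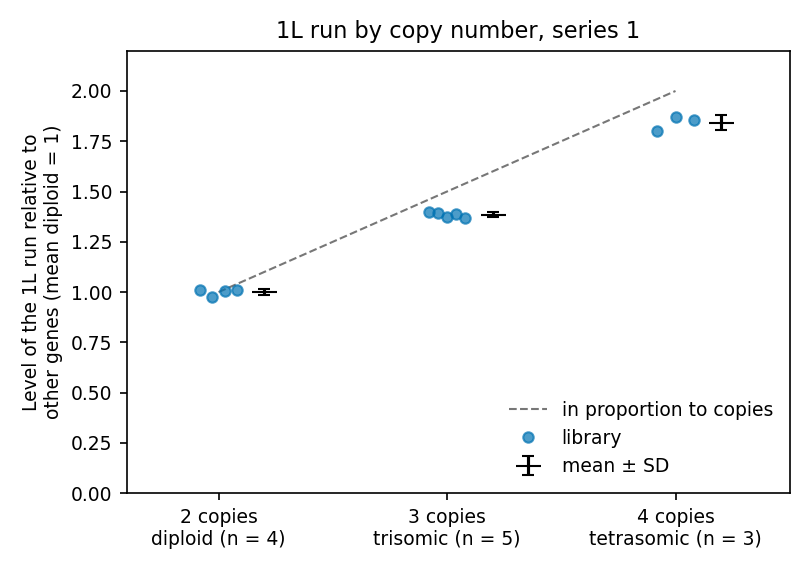
Level of the 1L run relative to all other tested genes (y axis, mean of the diploids set to 1) in each series 1 library with 2, 3 or 4 copies of 1L (x axis). Dots are libraries, bars are the mean ± SD, and the dashed line is proportion to copy number. The trisomic libraries lie near 1.39 and the tetrasomic ones near 1.84, both below the line.

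Whether the step to the fourth copy differed from the step to the third was also tested gene by gene, as the tetrasomic minus trisomic change less the trisomic minus diploid change. EdgeR called 0% of the 22435 genes. An unadjusted p below 0.05 was found for 1656 of them, 222 of the 1901 in the run and 1434 of the 20534 outside it. The test was for a difference from 0, which is not the value that proportion gives in the run. DESeq2 called 109 genes in the same contrast and limma-trend 0. The median of this difference was -0.18 (log2) in the run, where exact proportion at both steps would give -0.17, and -0.04 outside it. The run's median was not shared by its parts. By quartiles of the standard error of the tetrasomic over trisomic change, smallest first, it was -0.05, -0.12, -0.36 and -0.70. With the same bounds it was 0.11, 0.03, -0.16 and -0.64 outside the run. Among 6 consecutive windows of the run it was 0.04 in the first and -0.13 to -0.26 in the others.

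Gene by gene, edgeR's quasi-likelihood test called 0% of 22435 genes at a Benjamini-Hochberg adjusted p below 0.05 between tetrasomics and trisomics. The smallest adjusted p was 0.052, for a gene of the run. At an unadjusted p below 0.05, 2315 genes differed, 5.60% of all tested genes being higher and 4.72% lower in tetrasomics. The count of calls changed with the tool and the libraries. It was 425 with DESeq2, 21 without trisomic replicate 1, 23 in a fit without diploid replicate 1, which enters only through the shared estimate of spread, and 0 with limma-trend. Of the 425 DESeq2 calls, 240 were higher and 6 lower in the run, and 70 were higher and 109 lower outside it.

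The run nevertheless stood out by the direction of its genes. Of its 1901 tested genes, 1526 (80.3%) had a fold change above 0, tetrasomic over trisomic, against 8864 of the 20534 genes outside it (43.2%). Genes of the run had a median log2 fold change of 0.37, with the middle 50% of genes between 0.11 and 0.56. Outside it the median was -0.05, with the middle 50% between -0.31 and 0.14. At an unadjusted p below 0.05, 650 genes of the run were higher (34.2%) and 29 lower (1.53%). Outside the run 607 were higher (2.96%) and 1029 lower (5.01%). This lean to lower values depended on scaling. With TMM computed outside the run, 762 genes there were higher and 889 lower, and 47.4% had a fold change above 0.

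The same held for genes whose libraries did not overlap between the groups. Every tetrasomic library was above every trisomic one for 1125 of all tested genes, 5.01%, and below for 673, 3.00%. In the run 537 genes (28.2%) were entirely higher in tetrasomics and 14 (0.736%) entirely lower. Outside it 588 (2.86%) were entirely higher and 659 (3.21%) entirely lower. With TMM scaling computed outside the run the split there turned to 774 higher and 541 lower. When each of the 8 libraries was left out in turn, 653 to 1276 genes outside the run were entirely higher and 812 to 1854 entirely lower, with the most lower without tetrasomic replicate 2. In the run 543 to 691 were then entirely higher and 16 to 58 entirely lower. The run holds 8.47% of the tested genes and 47.7% of those entirely higher.

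**Figure D2:**
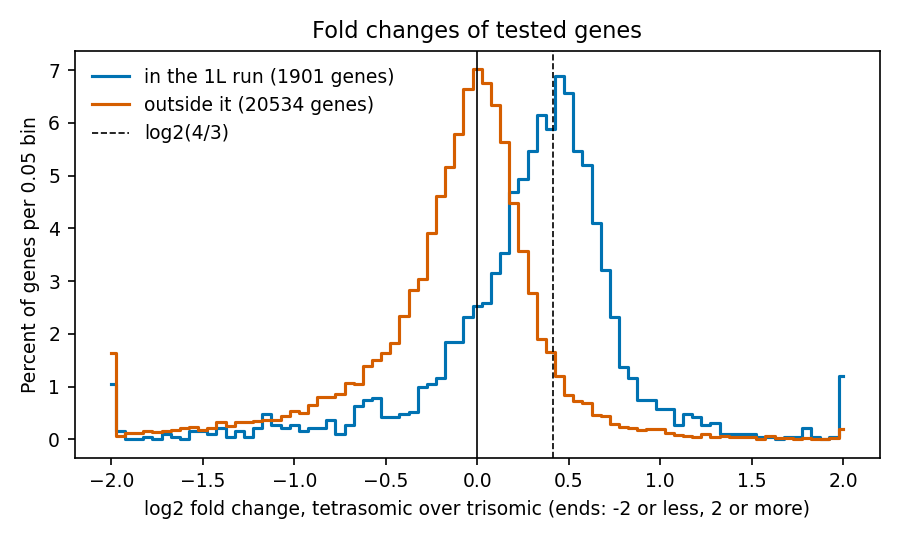
Distribution of log2 fold changes, tetrasomic over trisomic, for the 1901 tested genes of the 1L run and the 20534 outside it. The x axis is the log2 fold change and the y axis the percent of each set per bin of 0.05. The run is centred near its median of 0.37, close to the dashed line at log2(4/3), and the other genes near -0.05.

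The run's genes were classed by the 95% confidence interval of their fold change. The interval held the log2 copy ratio of 0.42 and not 0 for 579 genes (30.5%), here called proportional. It held 0 and not the ratio for 75 (3.95%), here called compensated, and it held both for 1147 (60.3%). It lay above the ratio for 71 genes, below 0 for 29 and between 0 and the ratio for 0. The median interval reached 0.58 (log2) to either side of its estimate, more than the ratio itself, so that most single genes could not be placed. Outside the run, where no ratio is expected, 553 genes (2.69%) had intervals that held 0.42 and not 0.

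Nearly all of the most precisely measured genes of the run had higher values in tetrasomics. Standard errors come from the same contrast as the fold changes, so that sorting by them is not independent of direction. Of the quartile with the smallest standard errors (below 0.19), 463 of 475 genes had a fold change above 0. Their median was 0.46 and the middle 50% of them lay between 0.34 and 0.56. The medians of the next quartiles were 0.38 and 0.26, so that the first lay above the log2 copy ratio of 0.42 and the others below it. In the first quartile 341 genes (71.8%) were proportional, 18 (3.79%) compensated and 94 (19.8%) undecided, where narrow intervals by construction leave fewer genes undecided. Groups were entirely apart and higher in tetrasomics for 321 genes of that quartile (67.6%), against 5.10% of the genes outside the run with equally small errors. In the quartile with the largest standard errors (above 0.45) the median was 0.11, and 258 of 476 genes were above 0.

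Outside the run the medians also fell as standard errors grew, from a lower start. Genes with standard errors below 0.19 had a median log2 fold change of 0.04, and those with standard errors above 0.45 one of -0.40. The quartiles between them had medians of -0.02 and -0.12. Among the noisiest genes outside the run, values were therefore mostly lower in tetrasomics than in trisomics. Outside the run 1324 genes lay below -1 and 232 above 1, and those below -1 averaged few reads, with a median of 1.04 CPM. For 424 of the 1324 the highest value among the 8 libraries was that of trisomic replicate 4, and for 341 that of trisomic replicate 5. Trisomic replicates 1, 2 and 3 held it for 199, 157 and 203. In the run 90 genes lay above 1 and 70 below -1.

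Fold changes also moved with the level and length of genes. In the run the median was 0.24 for genes with a mean RPKM below 0.944 and 0.39, 0.42 and 0.36 in the next quartiles by level. Gene length, as implied by the RPKM table, went with the fold change both in the run and outside it. In the run the medians were 0.26, 0.31, 0.40 and 0.44 by quartiles of length, shortest first, with bounds at 1930, 3763 and 6348 bp. Outside it they were -0.17, -0.09, -0.02 and 0.02 with the same bounds. The gap between the run and other genes was therefore 0.40 to 0.43 in every quartile of length. What the dependence on length adds to single genes was not tested.

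Along the run the median gene differed by much the same amount from end to end, while the mean level differed most in the first window. In 6 consecutive windows of 531 or 532 identifiers, with 288 to 363 tested genes each, the median log2 fold change was 0.39, 0.37, 0.34, 0.37, 0.37 and 0.36. The relative level of each window was higher in every tetrasomic library than in any trisomic one. In the first window it was 0.53 to 0.70 in tetrasomics and 0.09 to 0.15 in trisomics, and in the last 1.11 to 1.15 and 0.70 to 0.80. Tetrasomic minus trisomic, the mean relative levels differed by 0.54, 0.43, 0.40, 0.36, 0.39 and 0.37 from the first window to the last. For the step from diploid to trisomic the same windows had medians of 0.35, 0.43, 0.55, 0.55, 0.54 and 0.58, lowest in the first.

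The medians changed at both edges of the run. Tetrasomic libraries had helped to choose those edges, so that a change there is not an independent finding. The 100 tested genes before the first edge had a median of -0.03, with 49 above 0, and the first 100 in the run one of 0.34, with 81 above 0. The 8 tested genes of the run before the series 2 edge had a median of 0.03, with 4 above 0. At the far end, the last 100 in the run had a median of 0.36, with 85 above 0, and the next 100 beyond it one of -0.10, with 38 above 0.

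**Figure D3:**
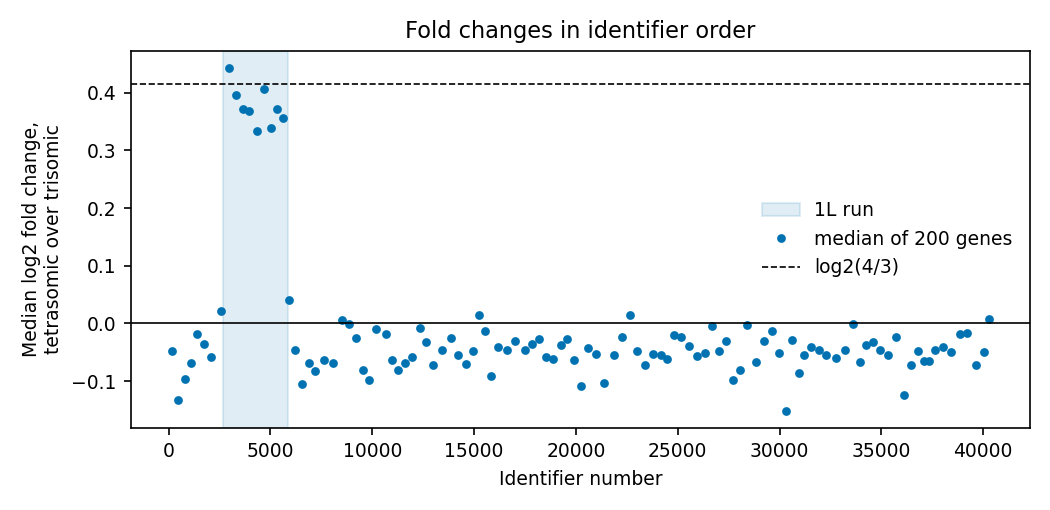
Median log2 fold change, tetrasomic over trisomic (y axis), of each 200 consecutive tested genes in the order of their identifier numbers (x axis). The shaded span is the 1L run, where the medians lie near the dashed line at log2(4/3), and the medians elsewhere lie near -0.05.

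No identifier met the rule set for naming genes, which asked for an adjusted p below 0.05, so 4 were singled out after their values were seen. They are the genes with the smallest unadjusted p among those with groups entirely apart and a mean of at least 5 CPM, for each direction in and outside the run. None of them passed the edgeR test after adjustment in the fit described. Under 18 other settings each, Zm00004b002726 was called in 6, Zm00004b003909 in 1, and Zm00004b022017 and Zm00004b015146 in 2.

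Zm00004b002726 lies in the run, with an estimate above proportion. It had 29.2, 30.2 and 31.8 CPM in tetrasomics and 15.6, 18.1, 17.9, 16.0 and 16.8 CPM in trisomics. Every tetrasomic library was well above every trisomic one, and the log2 fold change was 0.85 with an SE of 0.12 (adjusted p = 0.052 in edgeR). Its interval lay above the log2 copy ratio. The gene was called in 6 of 18 other settings, which were DESeq2 (adjusted p = 1.0e-08) and, with adjusted p values from 0.028 to 0.048, edgeR with RLE scaling, with TMM outside the run, with a filter at 5 CPM, without trisomic replicate 1 or in a fit without diploid replicate 1. In the other 12 it was not called, with adjusted p values from 0.072 without a filter to 0.51 with replicate numbers as a block. In libraries that share nothing with this comparison it was also higher at the higher dose. It averaged 29.3 ± 2.07 CPM (SD, n = 2) in disomic haploids and 13.5 ± 2.34 CPM (SD, n = 3) in haploids. The log2 fold change was 1.11 (adjusted p = 0.00065 in edgeR). In series 2 it averaged 23.8 ± 3.05 CPM (SD, n = 3) in trisomics and 5.84 ± 0.895 CPM (SD, n = 4) in monosomics. The log2 fold change was 2.02 (adjusted p = 4.9e-05 in edgeR).

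Zm00004b003909, also in the run, was 1 of 4 genes there that met the same criteria in the opposite direction. It had 13.2, 10.3 and 9.28 CPM in tetrasomics and 13.4, 36.3, 18.4, 51.5 and 26.2 CPM in trisomics. The groups are separated by a narrow margin, and the trisomic libraries are scattered. The separation rests on the TMM factors. Tetrasomic replicate 1 had 246 of 18130088 reads and trisomic replicate 1 had 218 of 17312326, a lower share, so that without those factors the groups overlap. The log2 fold change was -1.41 with an SE of 0.38 (adjusted p = 0.17 in edgeR). In series 2 it averaged 53.6 ± 20.4 CPM (SD, n = 3) in trisomics and 20.7 ± 5.43 CPM (SD, n = 4) in monosomics. The log2 fold change was 1.38 (adjusted p = 0.0090 in edgeR), in the direction of dose. It averaged 8.08 ± 2.99 CPM (SD, n = 2) in disomic haploids and 8.50 ± 2.60 CPM (SD, n = 3) in haploids. That difference did not pass the test (log2 fold change -0.07, adjusted p = 0.95 in edgeR).

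Outside the run, Zm00004b022017 was an abundant transcript, at 602.8, 530.0 and 633.7 CPM in tetrasomics and 329.0, 366.4, 321.8, 275.5 and 355.5 CPM in trisomics. The groups were well separated, and the log2 fold change was 0.84 with an SE of 0.16 (adjusted p = 0.093 in edgeR). Over copy number it did not run one way. It averaged 474.6 ± 76.2 CPM (SD, n = 4) in diploids, 329.6 ± 35.4 CPM (SD, n = 5) in trisomics and 588.8 ± 53.3 CPM (SD, n = 3) in tetrasomics. Its fourth-copy step minus its third-copy step was 1.36 (log2, unadjusted p = 0.00012 and adjusted p = 0.32 in edgeR). The disomic haploids, at 469.0 ± 5.52 CPM (SD, n = 2), lay below the haploids, at 638.6 ± 112.3 CPM (SD, n = 3). The log2 fold change was -0.45 (adjusted p = 0.22 in edgeR). In series 2 the gene averaged 265.5 ± 95.6 CPM (SD, n = 4) in monosomics, 258.5 ± 42.1 CPM (SD, n = 3) in diploids and 210.2 ± 23.9 CPM (SD, n = 3) in trisomics. Trisomics over monosomics gave a log2 fold change of -0.34 (adjusted p = 0.45 in edgeR). Neither comparison had a rise with dose.

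Zm00004b015146, outside the run, had lower means at higher copy numbers among the diploids, trisomics and tetrasomics of series 1 and within series 2. It had 6.45, 5.54 and 4.92 CPM in tetrasomics and 15.3, 14.8, 10.5, 17.7 and 15.7 CPM in trisomics. All tetrasomic libraries lay below all trisomic ones, and the log2 fold change was -1.39 with an SE of 0.25 (adjusted p = 0.087 in edgeR). The mean was 24.7 ± 7.0 CPM (SD, n = 4) in diploids of the same series, whose lowest library, at 16.5 CPM, was below the highest trisomic one. In series 2 the gene averaged 19.0 ± 5.66 CPM (SD, n = 4) in monosomics, 14.8 ± 2.40 CPM (SD, n = 3) in diploids and 4.49 ± 0.98 CPM (SD, n = 3) in trisomics. Its lowest monosomic library, at 10.9 CPM, was below every series 2 diploid, and all series 2 trisomics lay below both groups. The log2 fold change of trisomics over monosomics there was -2.08 (adjusted p = 0.00042 in edgeR). Disomic haploids had 9.32 ± 4.28 CPM (SD, n = 2) and haploids 17.8 ± 2.02 CPM (SD, n = 3), a difference that did not pass the test (log2 fold change -0.94, edgeR adjusted p = 0.078).

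**Figure D4:**
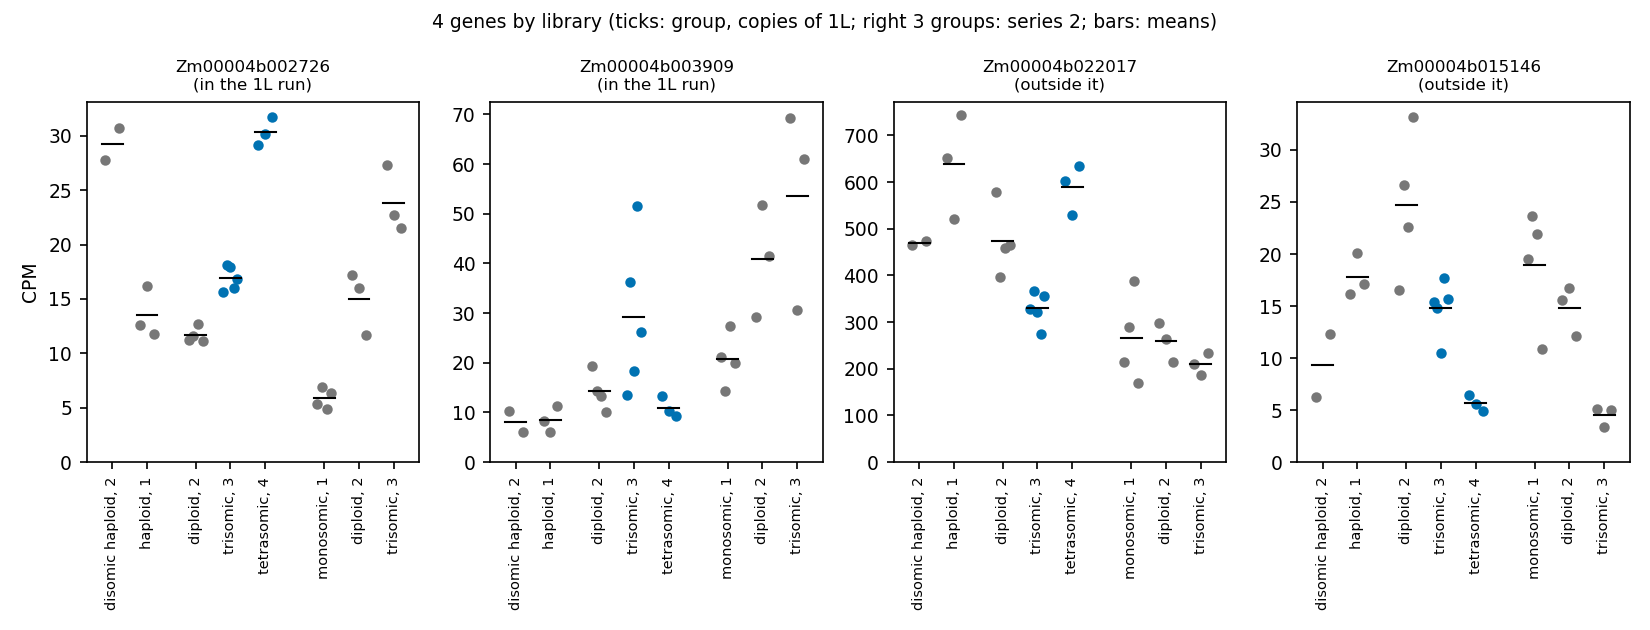
CPM (y axis, from 0) of the 4 genes described in the text, in each library of every group (x axis, with the copies of 1L). Dots are libraries, bars are group means, and the tetrasomic and trisomic libraries of series 1 are in blue. In each panel the tetrasomic values, scaled by TMM, do not overlap the trisomic ones, for Zm00004b003909 only because of that scaling.

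Most genes called between disomic haploids and haploids had fold changes in the same direction with the fourth copy. Disomic haploids against haploids is a doubling of 1L in a haploid genome, in libraries that neither tetrasomics nor trisomics share. In that comparison edgeR called 4.66% of all tested genes higher and 2.08% lower. Of the 708 called higher in the run, 687 (97.0%) had a fold change above 0 in tetrasomics over trisomics, with a median of 0.48. Of the 1189 genes of the run not called there, 70.6% did, with a median of 0.25.

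Outside the run, 338 genes were called higher and 462 lower in disomic haploids than in haploids. The 338 had a median log2 fold change of 0.27 in tetrasomics over trisomics, and 276 of them (81.7%) were above 0. The 462 had a median of -0.37, and 404 of them were below 0, or 87.4%. Over all tested genes outside the run the median was -0.05, with 43.2% above 0. The order held in every quartile of length, where the medians were 0.24 to 0.32 for the 338 and -0.56 to -0.25 for the 462.

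The level of these genes in each library shows the same. Their mean log2 CPM relative to other genes outside the run was set to 0 in the mean trisomic. The 462 genes stood at -0.47, -0.19 and -0.44 in tetrasomic replicates 1 to 3 and between -0.12 and 0.16 in the trisomic libraries. The 338 genes stood at 0.53, 0.29 and 0.57 in tetrasomics and between -0.08 and 0.05 in trisomics. Neither set overlapped between the groups, and tetrasomic replicate 2 was nearest to the trisomics in both. The mean differences were -0.37 (SE 0.10) and 0.47 (SE 0.09).

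Of the 462 genes, 70 were entirely lower in tetrasomics than in trisomics and 0 entirely higher. Those 70 are 15.2% of the genes called lower in disomic haploids, beside 3.21% entirely lower over all tested genes outside the run. They are 10.6% of the 659 genes entirely lower outside the run, beside 2.25% called lower over all genes there. Of the 338 genes, 63 were entirely higher and 5 (1.48%) entirely lower. The 63 are 18.6% of the 338, beside 2.86% entirely higher over all tested genes outside the run. They are 10.7% of the 588 genes entirely higher outside the run, beside 1.65% called higher over all genes there. Across 20534 genes outside the run the fold changes of both comparisons had a Pearson r of 0.47, with a Spearman rho of 0.40. In the run they correlated with r = 0.25 and rho = 0.31 over 1901 genes. These correlations are across genes, which are not independent replicates and which share their length, level and table scaling between the comparisons.

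Series 2 trisomics against monosomics, a comparison of 3 copies with 1 in other libraries, gave lower correlations in the run and outside it. In that comparison edgeR called 9.81% of 21825 tested genes higher and 4.95% lower. Of the 1377 genes of the run called higher, 1185 (86.1%) were above 0 in tetrasomics over trisomics of series 1, with a median of 0.38. That is close to all 1901 tested genes of the run, with 80.3% above 0 and a median of 0.37. Of the 386 genes of the run not called in series 2, 69.9% were above 0, with a median of 0.29. Outside the run the 1028 genes called lower had a median of -0.23, with 30.5% above 0, and the 728 called higher one of -0.08, with 41.6% above 0. With replicate numbers as a block the last median was 0.03. The -0.08 lies close to the -0.05 of all genes outside the run. The relative levels of both sets overlapped between the tetrasomic and trisomic libraries. For the 728 genes trisomic replicate 1 stood at -0.36, and the other trisomic libraries between 0.03 and 0.14. The correlation over 19411 genes outside the run was low, at r = 0.11 and rho = 0.09. In the run it was near 0, at r = -0.05 and rho = -0.04 over 1770 genes.

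Genes called the same way in both of those comparisons were few outside the run, 73 lower and 30 higher. Of the 73, 67 were below 0 in tetrasomics over trisomics, with a median of -0.61. Entirely lower in tetrasomics were 14 (19.2%), beside 3.21% of all tested genes outside the run. Their relative level was -0.69, -0.23 and -0.84 in tetrasomics and -0.18 to 0.27 in trisomics. The 30 had a median of 0.29, with 23 above 0. Entirely higher were 6 (20.0%), beside 2.86% of all tested genes outside the run. Their relative level was 0.49, 0.39 and 0.61 in tetrasomics and -0.22 to 0.16 in trisomics.

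**Figure D5:**
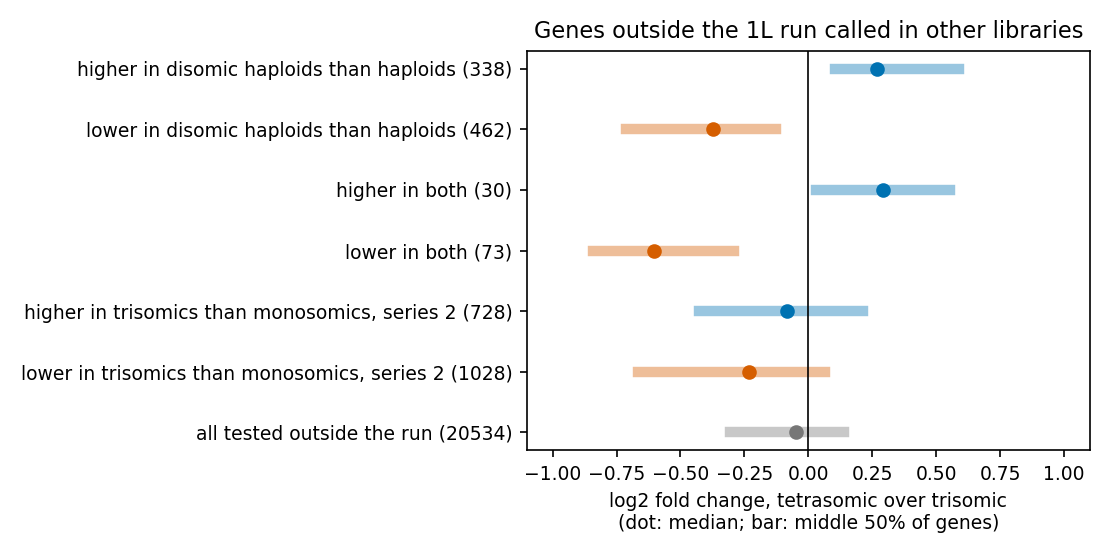
Log2 fold change, tetrasomic over trisomic (x axis), of genes outside the 1L run that edgeR called in disomic haploids against haploids, in series 2 trisomics against monosomics, or in both (rows, with the number of genes). Dots are medians and bars span the middle 50% of genes. The medians are 0.27 and -0.37 for genes higher and lower in disomic haploids, and -0.08 and -0.23 for those higher and lower in series 2 trisomics.

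No identifier was present in one of the groups and absent in the other. Of all 40306 identifiers, 0 had at least 10 reads in every tetrasomic library and at most 3 in all trisomic libraries together, and 0 the reverse. Without tetrasomic replicate 1 there were 8 present in tetrasomics alone, and without tetrasomic replicate 2 there were 6 present in trisomics alone. Without trisomic replicate 1 there were 3 present in trisomics alone.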

How the data were processed

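Per the labels' protocols, leaf RNA was extracted with TRIzol, poly(A)-enriched and made into TruSeq libraries. Bowtie, TopHat, Cufflinks and Cuffdiff appear in the submitters' processing notes, without versions or roles. Which genome build was used is not stated there. The authors' deposited count tables hold raw counts of reads per gene model, whole numbers with 1 column per library. The deposited RPKM table of series 1 was checked against the counts (each value is the count over a fixed gene length and the library total) and used for gene lengths, for quartiles by level and in limma-trend. The DNA table was not analysed here.

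Tests used edgeR 4.0.16 under R 4.3.3 with TMM scaling, the filterByExpr filter and two-sided quasi-likelihood F-tests with robust dispersion. Each series was fitted whole with group as the only term, which kept 22435 genes in series 1 and 21825 in series 2, with biological coefficients of variation of 0.318 and 0.273. A gene was called at an adjusted p below 0.05 (Benjamini-Hochberg). Standard errors were taken from the F statistics. Relative levels used log2 CPM with a prior count of 2 and library totals without TMM factors. The CPM of single genes, and the counts of genes with groups entirely apart, used totals scaled by TMM. Alternatives were DESeq2 1.42.0, limma-trend 3.58.1 on log2(RPKM + 1) or log2(RPKM + 0.1), RLE scaling, TMM outside the 1L run, other filters, the 8 compared libraries alone, replicate numbers as a block and leaving out each library. Counting errors cover only part of the variation, the reads carry no molecular identifiers, and nothing in the labels says which plants share a batch. The edgeR step and the relative levels were tested on simulated data.

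The members, gene sets and comparisons were chosen with earlier results of these data known. The naming rule allowed 1 rise and 1 fall each in and outside the run among called genes, with at least 5 CPM and groups apart. With 0 genes called, the 4 genes described and the windows, quartiles and edge sets were chosen after seeing the data. The markers listed in the design could not be looked up without gene names.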

Additional observations from a re-analysis of the deposited data

How the results depend on the processing

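The number of genes called was 0 in edgeR without a filter, with the compared libraries alone and with limma-trend on either pseudocount. It was 1 with RLE scaling, 5 with TMM outside the run and 1 with a filter at 5 CPM, all higher in the run. It was 23 in a fit without diploid replicate 1 (20 higher in the run, 1 higher and 2 lower outside it) and 425 with DESeq2 (240 higher and 6 lower in the run, 70 higher and 109 lower outside it). Leaving out 1 library at a time gave 0 to 21 calls, with 0 to 15 higher in the run and 0 to 1 higher and 0 to 5 lower outside it, and 0 to 1 for the difference between the steps, where DESeq2 called 109. The cause of these gaps was not tested.

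The relative level of the run differed by 0.37 with summed counts, 0.29 with mean log2(RPKM + 1), 0.34 with no filter and 0.43 with a prior count of 0.5, and by 0.40 to 0.43 without any 1 library. In percent of the log2 copy ratio, the third-copy step moved to 92.4 with the median gene, 109.1 with summed counts and 57.7 with mean log2(RPKM + 1), and the fourth-copy step to 88.3 with summed counts and 69.6 with mean log2(RPKM + 1). With 80% intervals 242 genes were compensated, 617 undecided and 183 beyond the ratio, and with 99% intervals 335 were proportional, 27 compensated and 15 beyond it. On log2(RPKM + 1) the median of the 462 genes lower in disomic haploids was -0.17 and that of the 1028 genes lower in series 2 trisomics -0.076. Identifiers present in a single group numbered 0 to 8 in tetrasomics and 0 to 6 in trisomics without any 1 library. The median over all tested genes was -0.03, and 0.00280 with TMM outside the run.

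With replicate numbers as a block, 0 genes were called and the relative level of the run differed by 0.41. Deviations from the group means correlated with r = 0.09, -0.32 and -0.02 for same-numbered libraries. The highest value was 0.28, for tetrasomic replicate 2 with trisomic replicate 4, and tetrasomic replicate 1 correlated best with trisomic replicate 2, at 0.24. Deviations within a small group are tied to each other, so these values cannot settle whether the numbers pair the samples. The widths of the intervals, and low counts in genes near 1 CPM, limit what can be said of single genes.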
